A study of Homo sapiens with 4 samples.

Results

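The 37 genes described here encode proteins of homologous recombination, the Fanconi anemia pathway, mismatch and uracil repair, and the checkpoint kinases ATM and ATR with their partners. They were chosen by symbol, with earlier results of these data known. Each of the 37 had at least 10 counts in at least 2 libraries. All of them thus stood among the 14024 tested genes of a table with 26364 rows. RNA of SW480 and of SW620, both cell lines of human colorectal cancer, was sequenced in 1 library of cells with SHMT2 knockdown and 1 library of control cells each. SHMT2 is the mitochondrial enzyme that turns serine and tetrahydrofolate into glycine and a one-carbon unit. The study's knockdown is an shRNA switched on by doxycycline in stably infected cells, and its text calls the comparison cells control shRNA cells, while the sample labels name the groups only as SHMT2 knockdown and control. The hairpin that was sequenced and the doxycycline status of the controls are not given in the sources used here.

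Homologous recombination repairs a DNA double-strand break from the intact sister chromatid: the break ends are cut back to single strands, a recombinase filament is loaded on them by the BRCA proteins and their partners, and helicases resolve the joined molecules. The Fanconi anemia pathway removes crosslinks between DNA strands, with a core complex that attaches ubiquitin to the FANCD2 and FANCI pair. Mismatch repair corrects replication errors and its loss is a known route to colorectal cancer, and UNG cuts uracil out of DNA. ATM and ATR signal breaks and stalled forks through CHEK2 and CHEK1. Many of these genes are transcribed mainly in S and G2 phase, so that in bulk RNA fewer cycling cells and less RNA per cell cannot be told apart.

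The libraries held 5530129 to 13774288 counts. SHMT2, the targeted gene, went from 277 to 30.9 CPM (the usual per-library depth scaling of read counts, here with TMM factors) in SW480 and from 688 to 47.6 CPM in SW620. Colorectal epithelial markers summed to 4390 to 9680 CPM of the library total, most of it from KRT8 and KRT18. Of the 6, CDX2 was at only 9.76 to 21.5 CPM, and VIL1 had 1 and 2 counts in the SW480 libraries. The 6 markers of leukocytes, fibroblasts and endothelium summed to 11.0 to 32.1. Most of this sum was COL1A1, at 20.2 to 21.2 CPM in SW480 and 6.24 to 6.33 CPM in SW620, and CD68, at 10.8 CPM in control SW480 cells and 4.43 to 5.29 CPM in the other libraries, while CD3E had 0 counts in all 4 libraries and PTPRC 0 to 2.

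After SHMT2 knockdown 3 of the 37 genes fell at an adjusted p under 0.05: FANCI, the partner of FANCD2 in crosslink repair, UNG, the uracil glycosylase, and EXO1, an exonuclease of end resection and mismatch repair. Their levels were 27.3% to 31.0% lower over both lines. No member rose at that threshold by edgeR or by DESeq2. DESeq2 gave no adjusted p for some members, EXO1, FANCF and FANCC among them, and had 0 members higher at an unadjusted p of 0.05 or less. At an unadjusted p of 0.05 or less, 9 members were lower (these 3 with XRCC2, RAD51C, FANCD2, MSH6, RMI1 and BRCA2) and 1, FANCF, was higher. Beside these counts, 1.17% of all tested genes fell and 0.492% rose after adjustment, and 4.91% were lower and 4.15% higher at the unadjusted threshold, against 8.11% and 24.3% of the members for the lower calls. The median log2 fold change of the 37 members was -0.16, with a range from -0.54 to 0.50, while the median of all tested genes was 0.00754.

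The genes were tested by edgeR's quasi-likelihood method with cell line and treatment as terms, two-sided, and p-values were adjusted by Benjamini-Hochberg over all 14024 genes. With 1 library per line and condition, each gene has 1 residual degree of freedom and the test borrows its spread from all genes, so a p-value measures only the spread between these libraries. The count of 3 falls was 1 with DESeq2, with library totals in place of TMM or with a minimum of 50 counts, and 0 without the cell line in the model, where no gene of the 14024 passed in either direction. Values within a single line carry the counting error of the reads and no test.

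**Figure D1:**
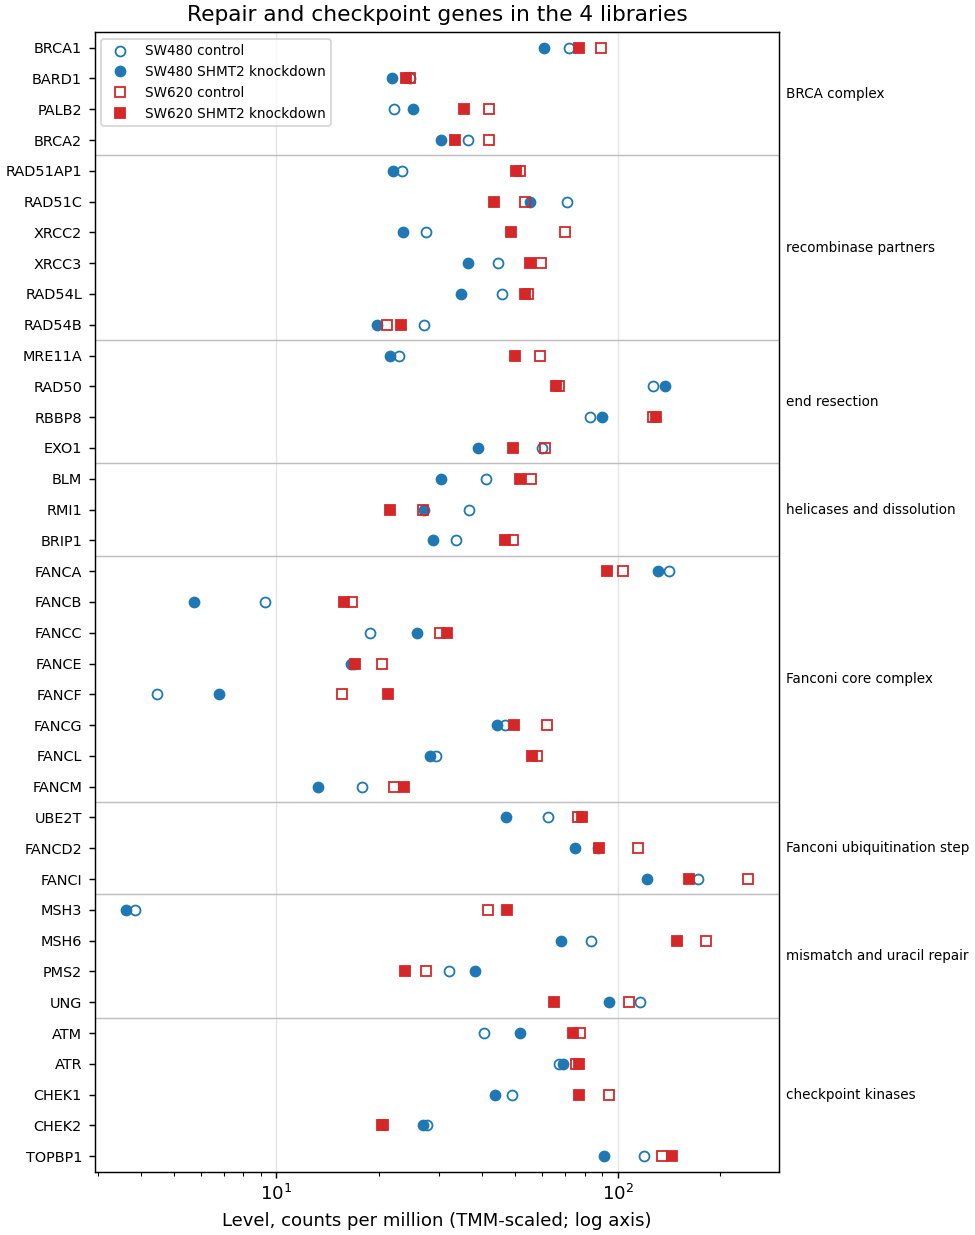
Level of each of the 37 genes in TMM-scaled CPM on a log axis, with 1 point per library; circles are SW480, squares are SW620, open points are controls and filled points are SHMT2 knockdown, and genes are grouped by role. FANCI, UNG, EXO1, BRCA2 and BARD1 are the 5 genes with both filled points to the left of both open ones, and MSH3 shows the widest gap between the lines.

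FANCI (GRCh38 chr15:89243949-89317261, plus strand) stood at 172 CPM in control and 122 CPM in knockdown SW480 cells, and at 241 CPM in control and 162 CPM in knockdown SW620 cells. Both knockdown libraries lay below both controls. The log2 fold change was -0.54 (SE 0.12, adjusted p = 0.000821 by edgeR's quasi-likelihood test, Benjamini-Hochberg), with -0.49 in SW480 and -0.58 in SW620. The knockdown left 71.2% of the control level in SW480 against 66.9% in SW620. Exons of FANCI overlap those of POLG on the opposite strand, and since the use of strand in counting is not given in the sources used here, reads of the shared stretch cannot be assigned. POLG, looked up after these values were seen, had a log2 fold change of -0.30 in the same edgeR fit. Its unadjusted p was 0.0144 and its adjusted p 0.300 by edgeR with Benjamini-Hochberg, so it did not pass adjustment.

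UNG (chr12:109097574-109110992, plus strand) went from 116 CPM in control to 94.6 CPM in knockdown SW480 cells, and from 108 CPM to 64.9 CPM in SW620. The groups did not overlap, and the difference was larger in SW620 (60.0% of control) than in SW480 (81.3% of control). The fit over both lines gave a log2 fold change of -0.52 (SE 0.13, adjusted p = 0.00513 by edgeR's quasi-likelihood test, Benjamini-Hochberg). The call was lost when library totals replaced TMM (adjusted p = 0.0588 by edgeR), with a minimum of 50 counts (0.118) and with DESeq2 (0.698). Its adjusted p ranged from 0.00776 to 0.698 over the 6 alternatives that kept the cell line. GENCODE 29 lists 2 pseudogenes named for UNG, and how their reads were assigned was not tested.

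EXO1 (chr1:241847967-241895148, plus strand) had 59.9 CPM in control and 38.9 CPM in knockdown SW480 cells, and 61.2 CPM in control and 49.4 CPM in knockdown SW620 cells. The controls of the lines were nearly level and both knockdown libraries were below them. The log2 fold change was -0.46 (SE 0.14, adjusted p = 0.0433 by edgeR's quasi-likelihood test, Benjamini-Hochberg), close to the threshold. It was -0.62 in SW480 and -0.31 in SW620. The call was lost in each of the 5 alternatives with the cell line that gave a value, at an adjusted p of 0.0543 to 0.19 by edgeR, while the log2 fold change in them stayed between -0.493 and -0.448.

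Promoter stretches are shown for the called genes UNG and EXO1 and for FANCF, the member with the highest log2 fold change after knockdown. They are read 5′ to 3′ on the strand of the gene from the RefSeq promoter table (GRCh38.p14), whose windows run from 250 bases before to 50 bases after an annotated start. Capitals mark CCAAT, the box of the factor NF-Y, in UNG and FANCF, and the E2F-type letters TTTNGCGC (GCGCNAAA on the other strand) in EXO1. FANCI and RAD54B had no window there, so their promoters were not searched.
UNG: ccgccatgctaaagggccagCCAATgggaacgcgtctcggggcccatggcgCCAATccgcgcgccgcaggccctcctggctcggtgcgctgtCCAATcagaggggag
FANCF: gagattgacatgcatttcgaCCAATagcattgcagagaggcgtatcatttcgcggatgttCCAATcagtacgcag
EXO1: cgcaaattgaaaggtcagccTTTCGCGC
The UNG stretch is chr12:109097976-109098082 on the plus strand, before the second of its annotated starts and inside the gene. The FANCF stretch is chr11:22625861-22625935 on the minus strand, just upstream of the gene. The EXO1 stretch is chr1:241848188-241848215 on the plus strand, across an annotated start and inside the gene.

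TTTNGCGC was present in the windows of 5 of the 35 members that have one (14.3%), namely CHEK2, EXO1, FANCC, MSH3 and TOPBP1, against 3.50% of 10316 tested genes with a window. CCAAT was present in 19 of 35 members (54.3%) against 42.8% of tested genes. TTTGAA, the letters of the cell cycle homology region, was present in 5 of 35 members (14.3%) against 13.4%. Both strands were searched, and 12 members held none of the motifs. Of the 8 members with a window that were lower at the unadjusted threshold, 1 held TTTNGCGC, 1 TTTGAA and 3 CCAAT. A match is a description of the letters and shows no binding.

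Among the genes of the BRCA complex, which recognises breaks and hands the single strand to the recombinase, all 4 had a negative log2 fold change over both lines (median -0.17) and none passed adjustment. BRCA2, the recombinase loader, had 36.5 CPM in control and 30.5 CPM in knockdown SW480 cells, and 42.0 and 33.3 CPM in SW620, so that the groups did not overlap. Its log2 fold change was -0.30 with an unadjusted p of 0.0445 by edgeR. BARD1, the ubiquitin ligase partner of BRCA1, was the other member of the complex with both knockdown libraries below both controls, but by little: 24.7 to 21.9 CPM in SW480 and 24.6 to 24.0 CPM in SW620. BRCA1, the scaffold of the complex, was at 84.6% of its SW480 control and 86.1% of its SW620 control. PALB2, which bridges BRCA1 and BRCA2, was at 114% of control in SW480 but 84.3% in SW620.

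The 6 recombinase partners had log2 fold changes between -0.39 and -0.06 (median -0.20), and 5 were lower in both lines. XRCC2, a recombinase paralog, had 27.4 CPM in control and 23.5 CPM in knockdown SW480 cells, and 70.2 and 48.8 CPM in SW620. Its level in knockdown SW620 cells still exceeded that of control SW480 cells, and the log2 fold change was -0.39 (SE 0.14, unadjusted p = 0.00624, adjusted p = 0.187 by edgeR with Benjamini-Hochberg). RAD51C, another paralog, stood at 70.9 and 55.2 CPM in control and knockdown SW480 cells, and at 53.5 and 43.6 CPM in SW620. Its log2 fold change was -0.33 (SE 0.13, adjusted p = 0.296 by edgeR with Benjamini-Hochberg). RAD51C was thus lower by a like amount in each line, at 77.9% and 81.4% of control. XRCC3, a further paralog, was at 81.9% of control in SW480 but 93.2% in SW620. RAD54L, a DNA translocase that drives strand exchange, was at 75.7% and 98.1%, and its relative RAD54B at 73.0% and 110%. RAD51AP1, which stimulates strand pairing, was at 94.4% and 97.1%.

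The nucleases and cofactors of end resection had mixed directions, with a median log2 fold change of -0.07 over EXO1, MRE11A, RAD50 and RBBP8. RBBP8, the cofactor that starts resection, had 83.1 CPM in control and 89.7 CPM in knockdown SW480 cells, and 127 and 129 CPM in SW620. Its log2 fold change was 0.07 (SE 0.12), within the error. RAD50, the structural subunit of the nuclease complex, was at 108% of its SW480 control and 98.1% of its SW620 control, and MRE11A, the nuclease itself, at 94.2% and 84.5%.

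All 3 helicase and dissolution genes were below control in each line, and their median log2 fold change was -0.27. RMI1, a subunit of the complex that separates joined DNA molecules, had 36.8 CPM in control and 27.2 CPM in knockdown SW480 cells, and 27.0 and 21.5 CPM in SW620. The log2 fold change of RMI1 was -0.38 (SE 0.16, adjusted p = 0.342 by edgeR with Benjamini-Hochberg). BLM, the helicase of that complex, was at 73.7% of its SW480 control and 92.3% of its SW620 control, and BRIP1, the helicase bound to BRCA1, at 85.7% and 94.6%.

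The Fanconi core complex held the member with the highest log2 fold change, FANCF, and 1 of the 8 lowest, FANCB, and none of its 8 genes passed adjustment. FANCF, an adaptor of the complex, had 43 counts in control and 45 in knockdown SW480 cells, and 85 and 285 in SW620, or 4.48, 6.79, 15.6 and 21.2 CPM. Both lines were higher after knockdown, at 152% of control in SW480 against 136% in SW620. The fitted log2 fold change was 0.50 (SE 0.25, unadjusted p = 0.0414, adjusted p = 0.517 by edgeR with Benjamini-Hochberg). Its counts are low, and the unadjusted call was lost with a minimum of 50 counts, with DESeq2 and with thinned libraries. FANCC, also of the core, had 18.8 and 25.8 CPM in control and knockdown SW480 cells, and 30.1 and 31.6 CPM in SW620. Its log2 fold change of 0.25 (SE 0.17) came mostly from SW480, where it was at 137% of control, against 105% in SW620.

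FANCB, which pairs with the ubiquitin ligase of the complex, had 89 counts in control and 38 in knockdown SW480 cells, and 91 and 212 in SW620, or 9.27, 5.73, 16.7 and 15.8 CPM. Its fitted log2 fold change was -0.33 (SE 0.24, adjusted p = 0.816 by edgeR with Benjamini-Hochberg), with 61.9% of its SW480 control and 94.5% of its SW620 control. FANCL, the ubiquitin ligase, had 29.4 and 28.2 CPM in control and knockdown SW480 cells, and 58.1 and 56.3 CPM in SW620, a log2 fold change of -0.05. The scaffold FANCA was at 92.4% of control in SW480 against 89.8% in SW620. FANCG, which binds FANCA, was at 95.1% and 79.9%, and FANCE, which contacts FANCD2, at 98.4% and 83.3%. FANCM, the translocase that anchors the complex to DNA, was at 74.6% in SW480 and 107% in SW620.

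The ubiquitination step that follows the core complex had the lowest median of the 8 roles, -0.31 over FANCI, FANCD2 and UBE2T. FANCD2, the partner of FANCI in the ubiquitinated pair, had 87.6 CPM in control and 74.8 CPM in knockdown SW480 cells, and 115 and 88.0 CPM in SW620. Its log2 fold change was -0.31 (SE 0.13, unadjusted p = 0.0146, adjusted p = 0.301 by edgeR with Benjamini-Hochberg), smaller in size than that of FANCI in both lines. UBE2T, the ubiquitin-conjugating enzyme of this step, was at 75.5% of control in SW480 and 103% in SW620.

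In mismatch and uracil repair, UNG fell and the 3 mismatch genes did not pass adjustment. MSH6, which recognises single-base mismatches, had 83.4 and 68.3 CPM in control and knockdown SW480 cells, and 182 and 150 CPM in SW620. It was at 81.9% and 82.1% of control in the 2 lines, with a log2 fold change of -0.29 (SE 0.12, unadjusted p = 0.019 and adjusted p = 0.344 by edgeR with Benjamini-Hochberg). MSH3, which recognises loops of a few unpaired bases, had 37 counts in control and 24 in knockdown SW480 cells, and 227 and 638 in SW620, or 3.85, 3.62, 41.6 and 47.4 CPM. Its log2 fold change after knockdown was 0.13 (SE 0.20). PMS2, the endonuclease of mismatch repair, was at 119% of control in SW480 against 86.8% in SW620, and 11 pseudogenes carry its name in GENCODE 29, so its counts are uncertain.

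The checkpoint kinases and TOPBP1 had a median log2 fold change of -0.03, and none passed at either threshold. ATM, the kinase of the break response, had 40.5 CPM in control and 51.7 CPM in knockdown SW480 cells, and 77.4 and 74.1 CPM in SW620, a log2 fold change of 0.13 (SE 0.13). ATR, the kinase of the stalled fork response, was at 103% and 102% of control in the 2 lines. CHEK1, the kinase that ATR activates, was at 89.0% and 81.2%, and CHEK2, the kinase that ATM activates, at 96.9% and 99.2%, with 4 pseudogenes listed for it. TOPBP1, the activator of ATR, was at 76.7% in SW480 and 107% in SW620.

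Direction was shared between the lines more often than split. In SW480 29 members and in SW620 28 were below their control, beside 6705 and 6821 of all 14024 tested genes. Of the 37 members, 24 were lower in both lines, 4 were higher in both (RBBP8, FANCC, FANCF and ATR) and 9 were split. Among all tested genes 24.7% were lower in both, 27.0% were higher in both and 6764 were split. The 5 members with both knockdown libraries below both controls compare with 5.93% of all tested genes.

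By counting error alone, 17 members were lower than control by over 2 errors in SW480 and 15 in SW620, where 15.6% and 12.2% of all tested genes were. Of these, 9 were lower in both lines by that measure, against 4.24% of all genes: BRCA1, BRCA2, RAD51C, EXO1, RMI1, FANCD2, FANCI, MSH6 and UNG. In the other direction, FANCC, PMS2 and ATM were higher in SW480 (13.9% of all genes) and FANCF was higher in SW620 (12.9% of all genes). With 1 library per condition these counts leave out any variation between cultures.

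**Figure D2:**
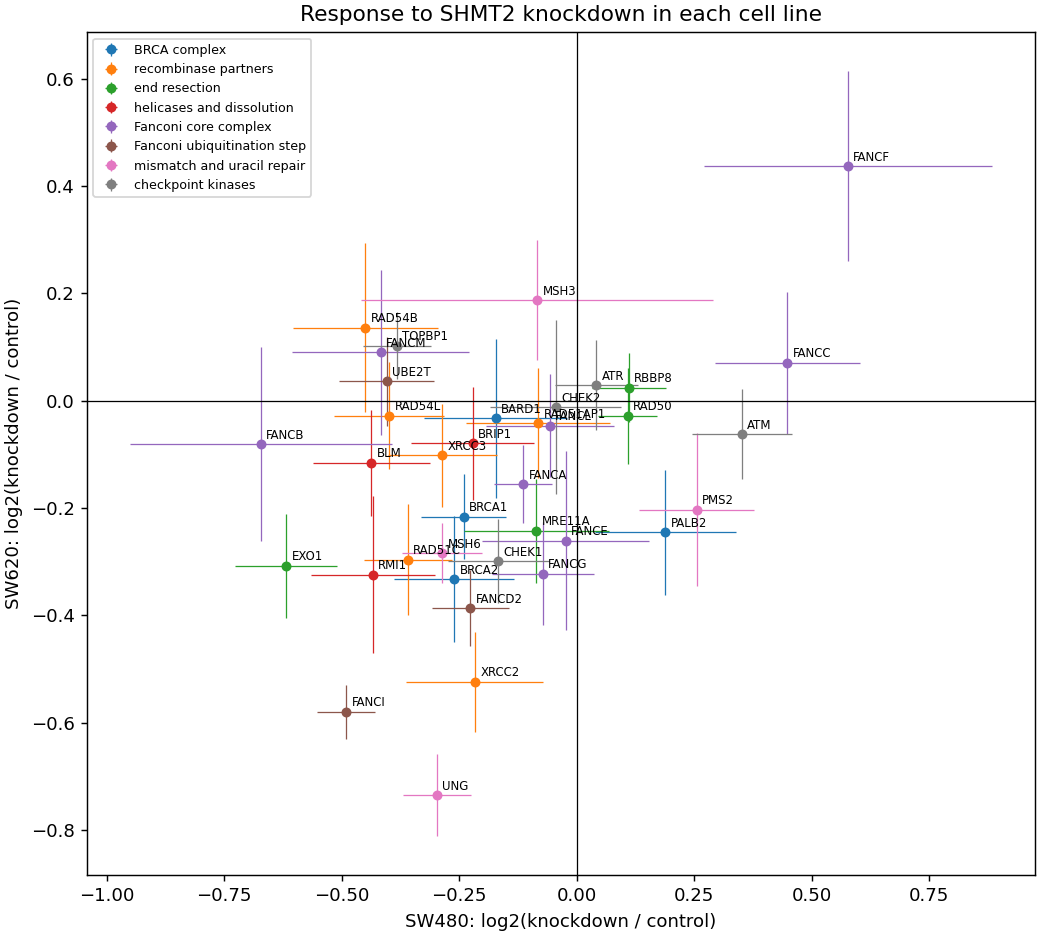
Log2 ratio of knockdown to control for each of the 37 genes in SW480 (horizontal) and SW620 (vertical), coloured by role; bars are 1 counting standard error and cover no variation between cultures. FANCI, UNG and EXO1 lie at the lower left, FANCF is the farthest of the 4 genes above 0 in both lines, and 24 genes are below 0 in both lines.

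The signed log2 ratio of knockdown to control differed between the lines by over 2 counting errors for 11 members. It was the more negative one in SW480 for 7 (RAD54L, RAD54B, EXO1, BLM, FANCM, UBE2T and TOPBP1), a difference that 12.8% of all tested genes showed, and in SW620 for 4 (PALB2, PMS2, UNG and ATM), which 10.1% of all genes showed. TOPBP1 had the widest gap in counting errors: its log2 ratio was -0.38 in SW480 and 0.10 in SW620. UNG followed, with -0.30 in SW480 and -0.74 in SW620. UBE2T had -0.40 in SW480 and 0.04 in SW620, and ATM 0.35 and -0.06. These differences were not tested, since no replicate separates line from culture.

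The cell lines differed in more of these genes than the knockdown did. In this comparison the control and knockdown libraries of a line served as its replicates, and no condition was repeated within a line. At an adjusted p under 0.05 by edgeR, 23 members were higher in SW620 than in SW480 (32.3% of all tested genes) and 7 were lower in SW620 (31.3% of all tested genes). DESeq2 called 11 and 2. The 7 were RAD50, FANCA, PMS2, CHEK2, RMI1, RAD51C and UNG, and the 7 members that passed in neither direction were BARD1, BRCA2, RAD54B, EXO1, FANCE, FANCG and ATR. Both SW620 libraries stood above both SW480 libraries for 25 members (40.7% of all genes) and below them for 6 (39.6% of all genes). The median log2 difference of the members, SW620 minus SW480, was 0.45, and that of all tested genes 0.0102.

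MSH3 (chr5:80654648-80876460, plus strand) differed most, with 3.62 to 3.85 CPM in SW480 and 41.6 to 47.4 CPM in SW620. The level was 11.8-fold higher in SW620 (log2 difference 3.56, SE 0.21, adjusted p = 5.66e-60 by edgeR with Benjamini-Hochberg). Its level in SW480 rests on 24 to 37 counts a library.

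FANCF was 3.28-fold higher in SW620 (log2 difference 1.71, SE 0.25), and its SW480 libraries, at 4.48 and 6.79 CPM, did not reach those of SW620. MRE11A had 22.9 and 21.6 CPM in control and knockdown SW480 cells and 59.4 and 50.2 CPM in SW620, and was 2.46-fold higher in SW620. XRCC2 was 2.31-fold higher (log2 difference 1.21, SE 0.15). RAD51AP1 had 23.3 and 22.0 CPM in control and knockdown SW480 cells and 51.9 and 50.4 CPM in SW620, a 2.26-fold difference beside a log2 fold change of -0.06 on knockdown.

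FANCB was 2.19-fold, MSH6 2.19-fold and FANCL 1.99-fold higher in SW620. The adjusted p of these 8 differences ranged up to 9.78e-06 by edgeR with Benjamini-Hochberg, and FANCB lost its call under DESeq2 (adjusted p = 0.0549, range over 6 alternatives 6.12e-06 to 0.0549). RAD50 was the member with the largest difference in the other direction, 1.98-fold higher in SW480, at 127 and 137 CPM there and 67.5 and 66.2 CPM in SW620. RAD50 and MRE11A, subunits of one nuclease complex, therefore differed between the lines in opposite directions. Of the 9 members lower at the unadjusted threshold after knockdown, 4 were also higher in SW620 than in SW480 (XRCC2, FANCD2, FANCI and MSH6). Of all 37 members, 23 (62.2%) were higher in SW620, and of all tested genes 32.3%, so the count of 4 sets these members apart from neither.

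**Figure D3:**
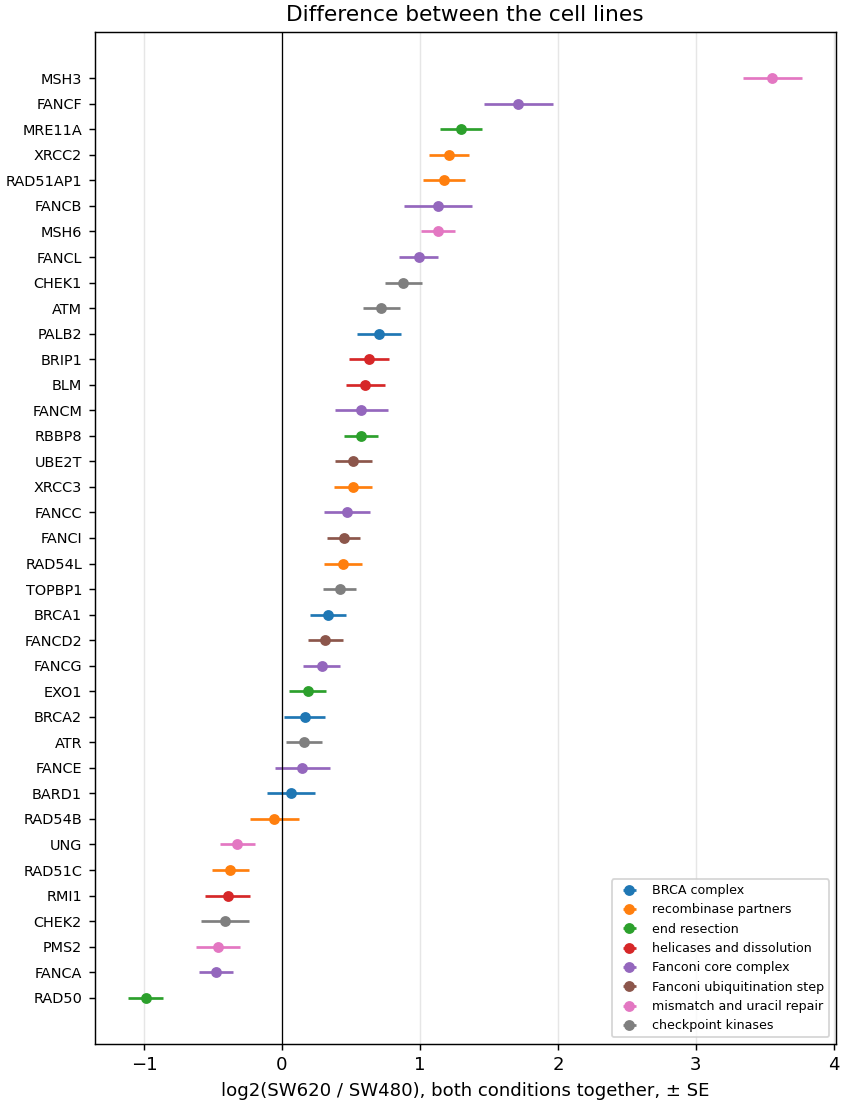
Log2 difference between the cell lines, SW620 minus SW480, for each of the 37 genes with its standard error from edgeR, both conditions together, coloured by role. MSH3 stands at 3.56, the next gene, FANCF, at 1.71, and RAD50 is lowest at -0.99.

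Per kilobase of the longest annotated transcript, the mean level of the controls ran from 76.6 CPM for UBE2T to 2.81 CPM for FANCM. UNG (52.7 CPM per kilobase) and FANCI (43.5) came next after UBE2T, so 2 of the 3 called genes were among the 3 most abundant members by this measure. EXO1 held place 13, at 17.4 CPM per kilobase. At the low end were FANCB (4.31), FANCF (3.40), BRCA2 (3.27) and FANCM (2.81), neighbours whose single-line values cross. MSH3 stood at 0.941 CPM per kilobase in control SW480 cells, below every other member there, and at 10.2 in control SW620 cells. The longest transcript may not be the one expressed, and exons of 14 members overlap an exon on the opposite strand, FANCI, MSH3, MSH6, FANCD2 and MRE11A among them.

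Among other genes of these pathways few passed adjustment and none rose by edgeR or DESeq2, at either threshold. Of 41 tested genes of 46 listed for homologous recombination and the Fanconi pathway, 2 fell (DNA2, a resection nuclease, log2 fold change -0.63, and RFWD3, a ubiquitin ligase, -0.40), and the median was -0.11. Of 37 tested of 38 genes of mismatch and base excision repair, 2 fell (PCNA, the replication clamp, -0.42, and APEX1, the abasic site nuclease, -0.40), and the median was -0.0978. None of the 16 other checkpoint genes passed adjustment by edgeR, or DESeq2, where 4 and 0 were lower at the unadjusted threshold, and their median was -0.20. Among 26 genes of end joining and nucleotide excision, 1 fell, the damage sensor DDB2 (-0.64), and the median was 0.0221. Pooled, 5 of these 120 genes fell and 17 were lower at the unadjusted threshold, with a median of -0.0903. DESeq2 called lower 0 of the recombination and Fanconi list, 1 of the mismatch and base excision list and 0 of the end joining and nucleotide excision list after adjustment. The lists are not separate sets. PCNA, FEN1, RFC2, RPA2, POLD3, USP1, CLSPN and TIPIN stand both on a repair or checkpoint list and on that of the S phase markers. CDC25C stands on the checkpoint list and on that of the G2/M markers.

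Cell cycle markers were lower in the same libraries. Of 35 tested S phase markers of 36 listed, 5 fell and 22 were lower at the unadjusted threshold, with a median log2 fold change of -0.30, and UHRF1 (-1.76), WDR76 (-0.64), PCNA (-0.42) and CDC6 (-0.48) had the smallest p. Of 54 G2/M phase markers, 7 fell and 26 were lower at the unadjusted threshold, with a median of -0.22, ANLN (-1.41), TUBB4B (-0.54), CDC20 (-0.51) and UBE2C (-0.49) having the smallest p. DESeq2 called 2 markers lower after adjustment and 12 at the unadjusted threshold in each of the phase lists. No marker of either phase was higher at either threshold by edgeR or DESeq2. The S phase markers summed to 4620 CPM in control and 3480 CPM in knockdown SW480 cells, and to 6160 and 5060 CPM in SW620. The G2/M markers summed to 9070 and 7410 CPM in SW480 and to 11200 and 9410 CPM in SW620. The 37 members summed to 1950 and 1710 CPM in SW480 and to 2480 and 2170 CPM in SW620. By flow cytometry, the study reports a larger G0/G1 share and a smaller S phase share after SHMT2 silencing in both lines. The part of cell cycle phase in the members' levels was not tested. Of the 6 epithelial markers the keratins KRT8 (log2 fold change -0.34) and KRT18 (-0.34) fell and the cadherin CDH1 (0.45) rose by edgeR, and DESeq2 called 0 of the 6 in either direction after adjustment, with 2 lower and 1 higher at the unadjusted threshold. Of the 2 tested markers of other cell types none passed adjustment by edgeR or DESeq2, with 1 and 0 lower at the unadjusted threshold.

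**Figure D4:**
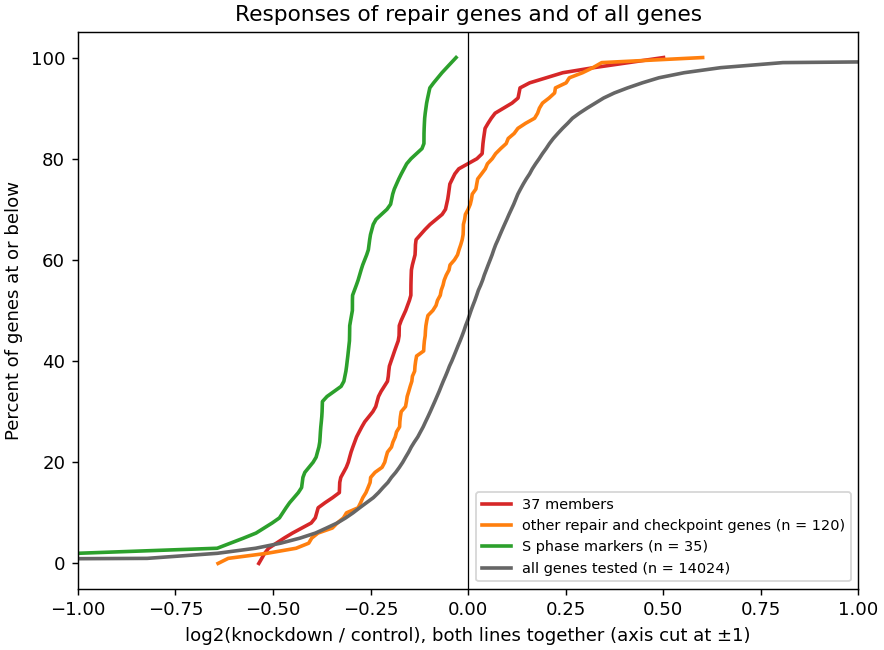
Cumulative share of genes at or below each log2 fold change after SHMT2 knockdown, both lines together, for the 37 members, 120 other repair and checkpoint genes, 35 S phase markers and all 14024 tested genes. The curve of the members lies left of that of all genes (medians -0.16 and 0.00754), and the S phase markers lie further left (median -0.30). Some genes, PCNA among them, are in both the 120 and the 35.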

How the data were processed

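RNA of SW480 and SW620 cells was sequenced from Illumina TruSeq libraries, with 1 library of SHMT2-knockdown and 1 of control cells per line. The deposited table holds raw read counts by gene symbol, not normalized by the authors. The submitters' processing notes name Bowtie 0.12.2 and hg18 without a role. The sources used here do not give the counting program, its annotation or its strand setting. The study's text names both RNA-seq and a microarray, and the deposited counts are integers whose totals differ between libraries (5530129 to 13774288), as sequencing gives.

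The 14024 genes that reached 10 counts in 2 or more libraries were kept. Counts were scaled by TMM and fitted in edgeR 4.0.16 (R 4.3.3) with cell line and treatment as terms and tested by quasi-likelihood, two-sided, with Benjamini-Hochberg adjustment over all genes and a threshold of 0.05. The cell line pairs each knockdown library with its own control, and the deviations of the paired libraries from their condition's mean correlated across genes at 0.961. Single-line log2 ratios had a prior count of 2 added, and their errors are counting errors. DESeq2 1.42.0, a model without the cell line, other filters and scalings, thinning to the smallest library and leaving out each line were the alternatives.

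The members and the 8 lists of other genes were chosen with earlier results of these data known, so no list was given a p-value. Values in every library are given for members that passed adjustment, the 5 largest other falls and rises, and the 8 largest line differences. Of each other list, log2 fold changes are given for up to 4 genes with the smallest p among those passing adjustment. BRCA2, BARD1, RAD50, TOPBP1, UBE2T and POLG were singled out after values were seen. Gene positions, overlaps and transcript lengths came from GENCODE 29 (GRCh38), matched by symbol for all 37 members (MRE11A as MRE11), and promoter windows of 300 bases from RefSeq (GRCh38.p14), matched for 35.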

Additional observations from a re-analysis of the deposited data

How the results depend on the processing

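Each condition had 1 library per line, so the calls rest on a spread shared across genes, and the depth of the libraries crossed the conditions, with the knockdown library the deeper one in SW620 and the shallower one in SW480. The number of members lower at an adjusted p under 0.05 was 3. It was 2 without a filter on low counts, 2 with the size factors of DESeq2 and 2 with thinned libraries. It was 1 with a minimum of 50 counts, 1 with library totals in place of TMM and 1 with the DESeq2 Wald test. That 1 was FANCI each time, and DESeq2 gave EXO1 no adjusted p. Of all 14024 tested genes, 164 were lower in the main fit, 88 with library totals and 21 with DESeq2. With the minimum of 50 counts, 54 of 11473 were. Without the pairing by cell line (no replicate block) the number of members was 0. At the unadjusted threshold 0 members were then lower and 0 higher, with 17 genes of all lower and 1 higher. With DESeq2 2 members were lower at the unadjusted threshold in place of 9. Of all 14024 genes, 178 were then lower in place of 688 and 63 higher in place of 582. The single higher member at that threshold, FANCF, was 0 with the minimum of 50 counts, with DESeq2 and with every library thinned to 5530129 counts. DESeq2 called 11 members higher in SW620 in place of 23 and 2 lower in SW620 in place of 7. FANCI passed in all 6 alternatives with the cell line, at an adjusted p of 0.00165 to 0.0444. Leaving out a line leaves the other line's ratios, whose median over the members was -0.217 in SW480 and -0.101 in SW620. After knockdown MSH3 had -0.0846 without SW620 and ATM had -0.0619 without SW480, where the fit over both lines gave 0.127 and 0.134. The median log2 fold change of all genes was 0.0224 with library totals and 0.0157 with the size factors of DESeq2. No direction of a called value reversed. The causes of these changes were not tested.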
